A study of Mus musculus with 2 samples.

Results

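The genes described here are 8 gastric and digestive secretory genes, Pgc, Gif, Chia1, Clps, Pla2g1b, Atp4a, Atp4b and Ghrl, out of 23924 gene symbols in a table of 2 RNA immunoprecipitation libraries. They were chosen by their FPKM values in these data, as stomach and digestive genes found in the IgG library, so their presence there and their direction between the libraries are a description and no test. All rows carrying one of these symbols were taken, and the FPKM values of a symbol's rows were summed. FPKM scales fragments to transcript length and library size, so levels of genes are compared per length.

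By their description, both libraries came from RAW 264.7 cells, a mouse macrophage line. In these cells mRrp6, a ribonuclease of the nuclear exosome (gene Exosc10), had been depleted before exposure to LPS at 80 ng/ml for 12 h. RNA was recovered from extracts of isolated nuclei, with an anti-nucleolin antibody for one library and with rabbit IgG for the other, to ask which transcripts nucleolin, an RNA-binding protein of the nucleolus, targets. The depletion is shared by both, and how it was made is not given in the sources used here. There was 1 library per antibody, so nothing below has a replicate check, an error or a p-value. Exosc10 was at 6.42 FPKM with anti-nucleolin and 0 FPKM with IgG, which checks nothing, since both libraries came from depleted cells.

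The acid-secreting glands of the mouse stomach hold chief cells at their base, which store digestive zymogens, parietal cells, which pump acid into the lumen, and scattered endocrine cells, some of which release ghrelin. Mucous cells line the pit and the neck of the gland. The digestive enzymes of the exocrine pancreas act further down, in the small intestine, although some of their genes are also active in other secretory epithelia.

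All 8 genes were listed at 0 FPKM with anti-nucleolin and at 191 to 5078 FPKM with IgG. Being listed at 0 in the nucleolin library was common: 45.9% of the 3194 genes at 1 FPKM or more in either library were at 0 there. Those 3194 include genes found with anti-nucleolin alone, which cannot be at 0 there. The genes at 0 numbered 1467, all of them among the 2009 genes at 0.1 FPKM or more with IgG. Counts at 0 in the lists below are to be read beside 1467 of 2009. Among the 67 genes at or above the level of the lowest of the 8 in the IgG library, 61.2% were at 0 in the nucleolin library. These 67 include the 8 themselves and other stomach genes at 0 there, such as Tff1 and Tff2. The median IgG level of the 8 was 929.7 FPKM, against 18.4 FPKM over the 2009 genes listed at 0.1 FPKM or more in that library. Together the 8 held 0% of the summed FPKM of the nucleolin library and 8.01% of that of the IgG library. Without Rn45s, Lars2, Mir6236 and Mir142b, RNAs that took a large part of one or both libraries, their share of the IgG library was 15.6%.

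**Figure D1:**
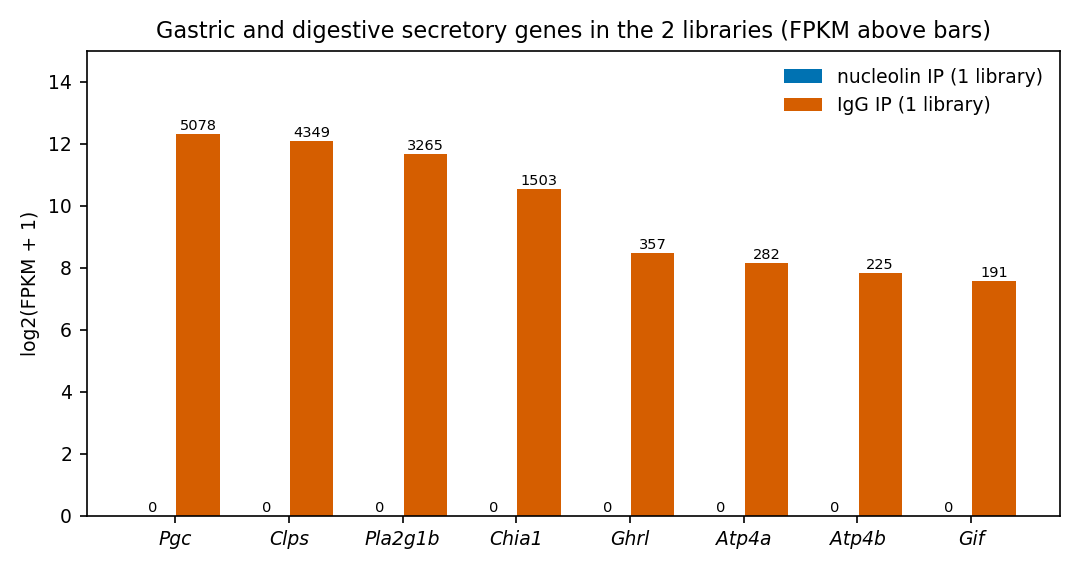
Level of each gene as log2(FPKM + 1), with the nucleolin library on the left and the IgG library on the right of each pair, 1 library each and no error bars. The numbers are FPKM; every gene is at 0 in the nucleolin library, and the IgG values span 191 to 5078 FPKM, with a gap between Chia1 and Ghrl.

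Among the chief cell genes, Pgc encodes pepsinogen C, an acid-activated aspartic protease precursor, and was at 0 FPKM with anti-nucleolin, against 5078 FPKM with IgG. It ranked 4th of all genes in the IgG library and 2nd of its protein-coding genes, and alone held 2.67% of that library's summed FPKM. Chia1, the acidic mammalian chitinase, a secreted enzyme that cleaves chitin, was at 0 FPKM with anti-nucleolin, against 1503 FPKM with IgG, where it ranked 9th. Gif encodes gastric intrinsic factor (now named Cblif), which carries vitamin B12 to its receptor in the ileum and is made by chief cells in the mouse. It was at 0 FPKM with anti-nucleolin, against 191 FPKM with IgG, where it ranked 67th. The 3 chief cell genes therefore stood far apart in level within the IgG library, with Pgc 26.6 times above Gif and 3.38 times above Chia1.

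Of the digestive enzyme genes, Clps encodes colipase, the cofactor that anchors pancreatic lipase to fat droplets in the presence of bile salts. It was at 0 FPKM with anti-nucleolin, against 4349 FPKM with IgG. Pla2g1b, a secreted phospholipase A2 first known from pancreatic juice, was at 0 FPKM with anti-nucleolin, against 3265 FPKM with IgG. The pair ranked 5th and 6th in the IgG library, next to Pgc, and Clps was 1.33 times above Pla2g1b. Together Clps and Pla2g1b held 49.9% of the summed IgG FPKM of the 8 genes, the 3 chief cell genes 44.4%.

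In parietal cells, Atp4a and Atp4b encode the catalytic alpha chain and the glycosylated beta chain of the gastric proton pump, the H,K-ATPase that acidifies the stomach. Atp4a was at 0 FPKM with anti-nucleolin, against 282 FPKM with IgG. Atp4b was at 0 FPKM with anti-nucleolin, against 225 FPKM with IgG. The 2 chains of the pump were thus close in level per length, with a ratio of 1.25 in the IgG library. Ghrl encodes the precursor of ghrelin, the appetite-stimulating peptide hormone of gastric endocrine cells. It was at 0 FPKM with anti-nucleolin, against 357 FPKM with IgG, where it ranked 28th. The 4 lower genes, Ghrl, Atp4a, Atp4b and Gif, followed each other in steps of 1.18 to 1.26 times, while the step from Chia1 to Ghrl was 4.21 times. With 1 library and no measure of spread, neighbours in this order could not be told apart by a test.

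**Figure D2:**
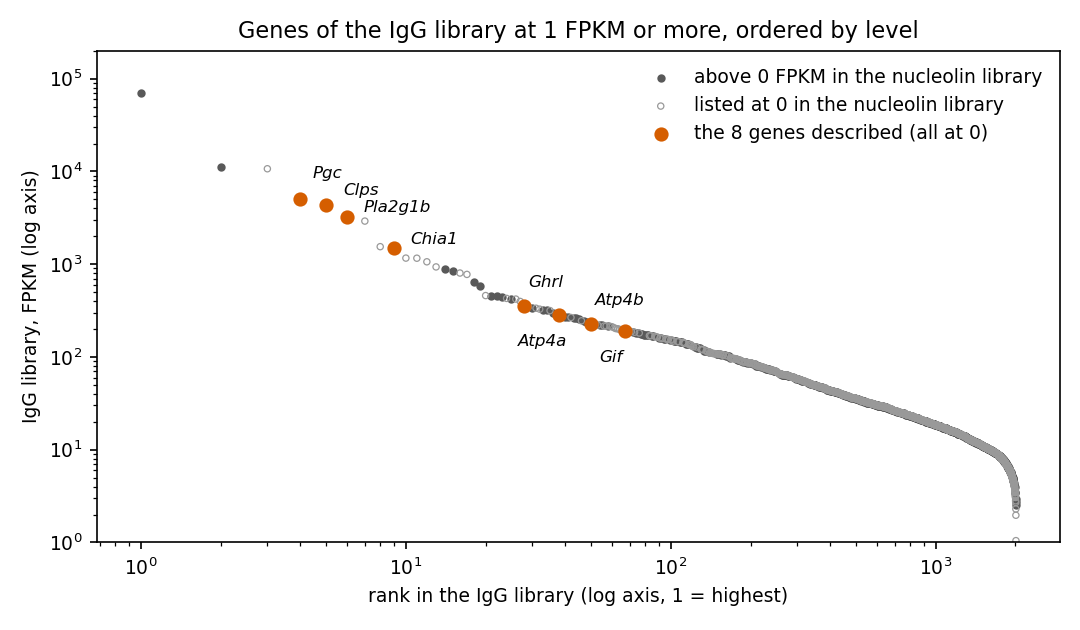
FPKM in the IgG library against rank, both on log axes, for genes at 1 FPKM or more there, with filled grey points above 0 and open points at 0 in the nucleolin library. Orange points are the 8 genes; Pgc, Clps, Pla2g1b and Chia1 stand among the 10 highest genes and the other 4 between ranks 28 and 67.

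The transcript rows behind these sums differed in number. Pgc, Clps, Pla2g1b, Chia1, Atp4b and Gif each had 1 row. Atp4a had 2 rows, and nearly all of its level was on NM_001290627 (282 FPKM in the IgG library), while NM_018731 had 0.0157 FPKM there. Ghrl had 4 rows, of which 1 was above 0 in the IgG library, NM_021488 at 357 FPKM. All rows of the 8 genes were at 0 in the nucleolin library, so the choice of row or sum did not touch the values there. No row of the 8 genes was marked as a copy of another locus.

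The FPKM values come in steps that show how few reads lie behind them. Among genes with 1 row and a RefSeq span of 1000 to 6000 bases, 17 in the IgG library lay on a single curve of FPKM against span, and so did 8 in the nucleolin library. Such genes have a transcript about as long as their span, and the shared smallest step is most simply 1 read. A read was worth 16.4 FPKM with anti-nucleolin and 42.3 FPKM with IgG for a transcript of 1 kb effective length, that is its length less 233 bases in the nucleolin library and 202 bases in the IgG library. On this scale Pgc had 120 reads per kb of effective length in the IgG library, Clps 103, Pla2g1b 77.3 and Chia1 35.6. Ghrl had 8.44 reads per kb, Atp4a 6.68, Atp4b 5.33 and Gif 4.51, so few reads per kb lie behind these 4. Transcript lengths were not used here, and whole read numbers of the 8 genes are not given.

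The same scale limits what the value of 0 in the nucleolin library can show. A count of 0 allows up to 3 reads, which at 1 kb of effective length is 49.3 FPKM in the nucleolin library. The IgG level of Pgc exceeds that limit for any transcript longer than 9.71 bases of effective length, that of Chia1 for any longer than 32.8 bases, and that of Gif, the lowest, for any longer than 259 bases. These limits cover counting error only. Pgc, Chia1 and Gif were chosen as genes found in the IgG library, so setting their IgG levels against the limit is a description. It is no test of a difference between the libraries. A level under the 3-read limit could have been missed in the nucleolin library, although single reads of other genes were listed there.

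**Figure D3:**
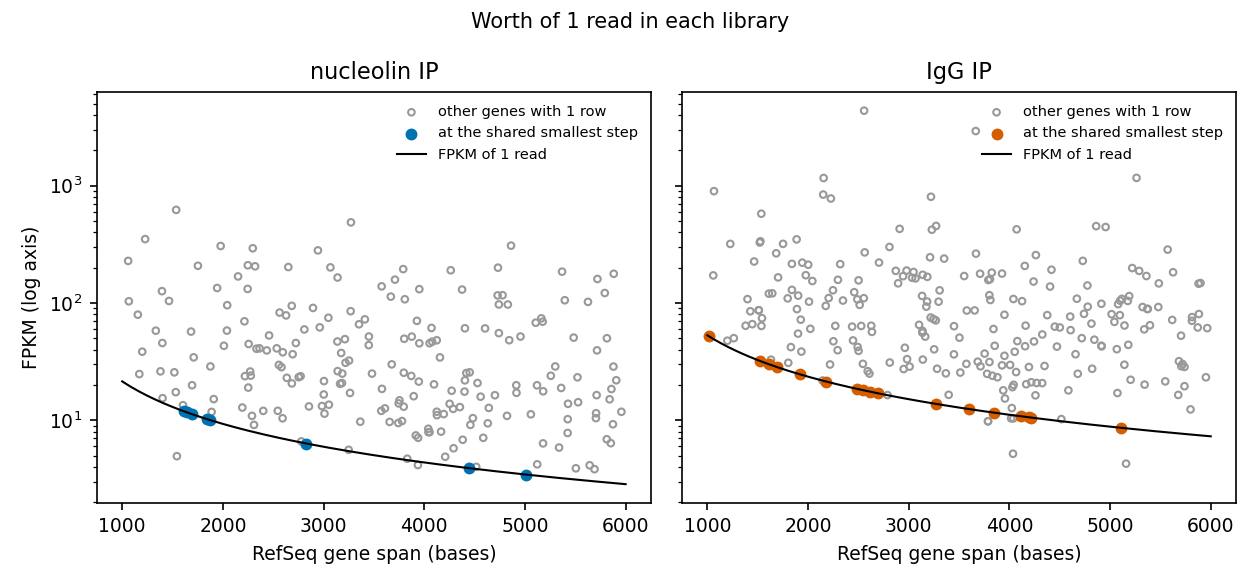
FPKM (log axis) against the RefSeq span in bases of genes with 1 transcript row, in the nucleolin library (left) and the IgG library (right). Coloured points are the 8 and 17 genes on the shared smallest step, and the line is the FPKM of 1 read, 16.4 and 42.3 FPKM at 1 kb of effective length; a few genes lie under the line.

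On the mm10 build, with positions from the RefSeq table of GRCm38.p6, the 8 genes lie on 7 chromosomes. Pgc (chromosome 17, 47726842 to 47734478) and Clps (chromosome 17, 28558210 to 28560766) share a chromosome. Pla2g1b lies on chromosome 5 (115466142 to 115474722), Chia1 on chromosome 3 (106113382 to 106132118) and Ghrl on chromosome 6 (113716119 to 113719911). Atp4a lies on chromosome 7 (30712209 to 30725534), Atp4b on chromosome 8 (13386209 to 13396778) and Gif on chromosome 19 (11747543 to 11763447). No other annotated protein-coding gene overlapped any of the 8 spans. Clps overlapped the microRNA gene Mir6969, listed at 0 FPKM in both libraries, and Gif overlapped Gm46655, a long non-coding RNA gene that was not analysed here.

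Promoter sequences in RefSeq's table were matched for 6 of the 8 genes, in 9 entries; Clps and Atp4b had no entry. The 250 bases before the start are shown for the 2 chief cell genes with the highest levels and for the pump's alpha chain. They are in 5′ to 3′ order on the plus strand. Each of these windows held searched letters, and so did windows of Ghrl, which are not shown. Capitals mark TATAAA, the letters of a core promoter element that places the start of transcription. They also mark CAGCTG, an E-box that reads the same on both strands, and AGGTCA, the half-site of many nuclear receptors. Each was searched on both strands.
Pgc, chr17:47726592-47726841: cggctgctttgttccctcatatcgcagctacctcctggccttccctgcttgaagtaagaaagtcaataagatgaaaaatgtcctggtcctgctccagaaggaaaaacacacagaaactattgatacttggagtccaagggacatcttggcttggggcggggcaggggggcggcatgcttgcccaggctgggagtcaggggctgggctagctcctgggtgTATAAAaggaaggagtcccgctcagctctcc
Chia1, chr3:106113132-106113381: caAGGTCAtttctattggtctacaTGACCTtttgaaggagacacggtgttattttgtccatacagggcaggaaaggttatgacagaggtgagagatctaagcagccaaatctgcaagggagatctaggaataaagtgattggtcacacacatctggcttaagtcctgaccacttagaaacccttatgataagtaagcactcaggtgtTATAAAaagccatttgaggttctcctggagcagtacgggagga
Atp4a, chr7:30711959-30712208: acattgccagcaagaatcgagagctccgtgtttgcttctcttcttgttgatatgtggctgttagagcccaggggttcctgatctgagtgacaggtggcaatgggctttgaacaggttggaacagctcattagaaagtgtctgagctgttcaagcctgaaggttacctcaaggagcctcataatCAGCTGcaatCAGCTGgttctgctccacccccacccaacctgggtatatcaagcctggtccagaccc
TATAAA began 31 bases before the start in Pgc and 43 bases before it in Chia1, and was found in 2 of the 9 entries and in 12.4% of all 32851 windows of the same length. CAGCTG was found at 67 and 57 bases before the start of Atp4a and in 1 Ghrl window, that is in 2 of 9 entries, against 13.0% of all windows. AGGTCA was found in Chia1 and in 2 overlapping Ghrl windows, 3 of 9 entries, against 14.0% of all windows. The exact letters AGATAA, a form of the site of Gata4 and its relatives, were in 0 of the 9 entries and in 9.99% of all windows. Variants of these letters were not searched. These matches are letters in a window and say nothing of binding.

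Other genes of the same cell types were counted over lists written with earlier results of these data known. In the nucleolin library, 56.7% of all 3194 genes compared were at least 2-fold lower and 37.8% at least 2-fold higher on the scale of log2(FPKM + 1), and the median log2 ratio was -1.27. That median lies near the ratio of equal reads, since a gene with equal reads in both libraries had 0.393 times its IgG FPKM in the nucleolin library. All 8 genes described here were among the lower ones, with a median log2 ratio of -9.52, a value set by the pseudocount of 1 because the nucleolin values are 0.

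Of 6 other chief cell genes in the table, 2 were measured, that is at 1 FPKM or more in either library. Clu, the secreted chaperone clusterin, was at 0 FPKM with anti-nucleolin and 158 FPKM with IgG. Xbp1, a secretory-cell transcription factor that many cell types use, was at 8.26 FPKM with anti-nucleolin and 20.9 FPKM with IgG, close to the ratio of equal reads. Pga5, Lipf and Bhlha15, which encode another pepsinogen, gastric lipase and the chief cell transcription factor Mist1, were listed at 0 in both libraries.

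Of 17 other genes of parietal cells and acid secretion, 9 were measured, all 9 at least 2-fold lower with anti-nucleolin and 6 of them at 0 there; the median log2 ratio was -3.73, a value set by the pseudocount, since it is that of Slc26a9 (0 FPKM with anti-nucleolin and 12.3 FPKM with IgG). Car2, the carbonic anhydrase that supplies protons to the pump, was at 0 FPKM with anti-nucleolin and 159.7 FPKM with IgG. Kcnq1, the luminal potassium channel that recycles potassium for the pump, was at 0 FPKM with anti-nucleolin and 29.9 FPKM with IgG. Slc4a2, the basolateral chloride-bicarbonate exchanger, was at 4.39 FPKM with anti-nucleolin and 33.6 FPKM with IgG. Esrrg, a nuclear receptor of parietal cells, was at 0 FPKM with anti-nucleolin and 8.29 FPKM with IgG, and Ckb, the brain-type creatine kinase, was at 13.2 FPKM with anti-nucleolin and 33.1 FPKM with IgG, close to the ratio that equal reads give. In the IgG library all 9 lay below the pump's own 2 chains, and apart from Car2 each lay under 42.3 FPKM, the worth of 1 read at 1 kb of effective length. A read is worth less FPKM on a longer transcript, so this does not place them below 1 read. Their transcript lengths were not used.

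Of 15 other gut endocrine genes 2 were measured, both at 0 in the nucleolin library. Chga, the granule protein chromogranin A, was at 25.2 FPKM with IgG and Hdc, the histamine-forming enzyme of enterochromaffin-like cells, at 19.2 FPKM. Mboat4, the enzyme that acylates ghrelin, and the hormone genes Gast and Sst were listed at 0 in both libraries.

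Pancreatic and digestive enzyme genes other than Clps and Pla2g1b were sparse. Of 32 such genes, 5 were measured, all 5 at 0 in the nucleolin library. In the IgG library, Ctrb1, a chymotrypsinogen, was at 61.7 FPKM, Cela1, an elastase, at 46.8 FPKM and Pnliprp2, a pancreatic lipase-related protein, at 30.9 FPKM. Dmbt1, a mucosal scavenger protein, was at 14.0 FPKM and Amy2a5, a pancreatic amylase, at 7.68 FPKM there. The defining acinar genes Pnlip (pancreatic lipase), Cpa1 (carboxypeptidase), Cel (bile salt-stimulated lipase) and Prss2 (a trypsinogen) were listed at 0 in both libraries. Beside Clps at 4349 FPKM and Pla2g1b at 3265 FPKM in the IgG library, the 5 other measured members of the list summed to 161 FPKM there.

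Pit and neck mucous genes were the other abundant gastric group. Of 13 genes 11 were measured, all 11 at 0 in the nucleolin library, and they summed to 0 FPKM with anti-nucleolin and 7538 FPKM with IgG, against 0 and 15250 FPKM for the 8 genes. Tff1, a trefoil peptide of pit cells, was at 2915 FPKM and Tff2, a trefoil peptide of neck cells, at 803 FPKM in the IgG library. Among 19 intestinal genes only Apoa1 was measured (0 FPKM with anti-nucleolin and 215 FPKM with IgG), and the enterocyte and goblet cell genes Fabp2, Vil1 and Muc2 were at 0 in both. None of 10 salivary and airway secretory genes was measured in either library. Of 11 further genes for vitamin B12 handling 2 were measured, the carrier Tcn2 and the lysosomal exporter gene Lmbrd1, at 0 FPKM with anti-nucleolin and at 23.1 and 8.14 FPKM with IgG. Cubn, part of the ileal receptor for intrinsic factor, was at 0 in both.

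Of 12 transcription factors of the gastric epithelium 3 were measured. Gata4 was at 0 FPKM with anti-nucleolin and 26.5 FPKM with IgG, and Klf4 at 5.84 FPKM with anti-nucleolin and 59.5 FPKM with IgG. Foxa1 was listed the other way, at 5.56 FPKM with anti-nucleolin and 0 FPKM with IgG. Its level lay under 16.4 FPKM, the worth of 1 nucleolin read at 1 kb of effective length. A count of 0 with IgG allows up to 3 reads, 127 FPKM at 1 kb, so these values do not settle its direction. Sox2, Gata6 and Hnf4a were at 0 in both.

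**Figure D4:**
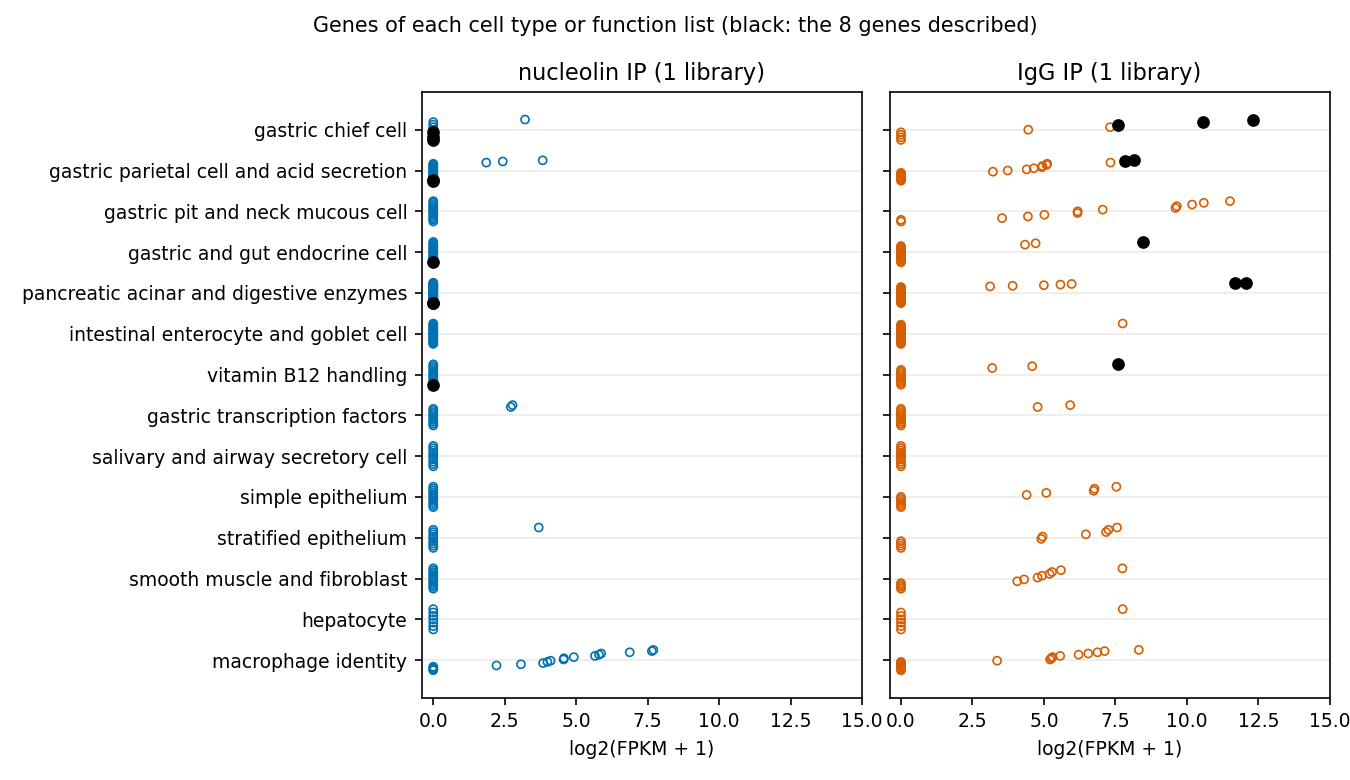
Level as log2(FPKM + 1) of every gene of each list, in the nucleolin library (left) and the IgG library (right), 1 library each; black points are the 8 genes and some genes are on more than 1 list. The pit and neck mucous, endocrine, digestive enzyme, simple epithelial and muscle lists have nonzero points in the IgG panel alone, the parietal list has 3 on the left and 11 on the right, and the transcription factor and macrophage lists have points in both.

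Relatives of the 8 genes in the same protein families, which were chosen after values had been seen, included genes of wide expression. Ctsd, the lysosomal aspartic protease related to pepsinogen, was at 57.3 FPKM with anti-nucleolin and 24.1 FPKM with IgG, while Ctse, the related protease of gastric and immune cells, was at 0 FPKM with anti-nucleolin and 132 FPKM with IgG. Atp1b3, a sodium pump beta chain, was at 30.9 FPKM with anti-nucleolin and 104 FPKM with IgG. Atp1b2, another beta chain, was at 6.03 FPKM with anti-nucleolin and 15.3 FPKM with IgG, while Atp1b1 was at 0 FPKM with anti-nucleolin and 17.7 FPKM with IgG. Of the 3 measured relatives of Atp4b, 2 were therefore listed in both libraries and 1 was at 0 with anti-nucleolin, as Atp4b was.

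Among 20 other phospholipase A2 genes 3 were measured. Pla2g15 (lysosomal) and Pla2g4a (cytosolic) stood at 6.64 and 6.29 FPKM with anti-nucleolin and 0 FPKM with IgG, and Pla2g4f was at 0 FPKM with anti-nucleolin and 14.5 FPKM with IgG. Of 6 other chitinases and chitinase-like genes, Chil4 and Chil1 were measured, at 0 FPKM with anti-nucleolin and at 64.6 and 28.4 FPKM with IgG. Chit1, which encodes chitotriosidase, was at 0 in both. Ghsr, the ghrelin receptor gene, was also at 0 in both.

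Markers of further cell types were listed beside the 8 genes. Of 11 simple epithelial markers 5 were measured, all at 0 in the nucleolin library, and the list summed to 0 FPKM with anti-nucleolin and 452 FPKM with IgG, with Krt8 at 185 FPKM and the claudin gene Cldn18 at 32.9 FPKM there. Of 10 stratified epithelial markers 6 were measured, 5 at 0 in the nucleolin library, and they summed to 11.9 FPKM with anti-nucleolin and 629.6 FPKM with IgG, with Lor and Krt13 at 188 and 152 FPKM there. Of 12 smooth muscle and fibroblast markers 8 were measured, all 8 at 0 in the nucleolin library, with sums of 0 FPKM with anti-nucleolin and 425 FPKM with IgG. Epcam, an epithelial adhesion gene, and Alb, the albumin gene of hepatocytes, were at 0 in both.

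Of 18 macrophage markers 15 were measured, 14 of them above 0 with anti-nucleolin and 10 with IgG, and they summed to 815 FPKM with anti-nucleolin and 907 FPKM with IgG. These sums do not compare reads, since equal reads give 0.393 times the IgG FPKM in the nucleolin library. Cd14, the LPS co-receptor, was at 207 FPKM with anti-nucleolin and 319 FPKM with IgG. On the scale of log2(FPKM + 1), with anti-nucleolin 5 stood higher by 2-fold or more and 6 stood lower. Over all genes compared, 37.8% stood higher and 56.7% lower. Among the 6 lower markers, Tyrobp (49.4 FPKM with anti-nucleolin and 116 FPKM with IgG) lay close to the ratio of equal reads. So did Spi1 (14.9 and 37.4 FPKM), Ctss (29.2 and 73.2 FPKM) and Cybb (3.64 and 9.29 FPKM). Cd68, a membrane protein of macrophage lysosomes, had a level of 16.2 FPKM with anti-nucleolin and 138 FPKM with IgG, and Ms4a6d at 0 FPKM with anti-nucleolin and 36.2 FPKM with IgG. The 5 higher markers were all at 0 with IgG. With anti-nucleolin, Csf1r was at 22.6 FPKM, Itgam at 7.39 FPKM, Lyz2 at 199.6 FPKM, Msr1 at 13.3 FPKM and Coro1a at 57.6 FPKM. A count of 0 with IgG allows up to 3 reads, 127 FPKM at 1 kb of effective length. Adgre1 (listed as Emr1) was at 0 in both. The part of these cell type markers in the values of the 8 genes was not tested. With 1 library per antibody, the antibody and whatever else differed between the libraries cannot be told apart. Both libraries are described as RNA immunoprecipitated from nuclei of a single cell line. The origin of the RNA of the 8 genes was not tested. These values measure neither numbers of cells of a type nor RNA per cell.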

How the data were processed

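The deposited table holds FPKM values made by the authors, per the file headers, in a column for each of the 2 libraries and 33529 transcript rows. FastQC 0.10.0, Trimmomatic 0.32 and mm10 are named in the submitters' processing notes. Not given in the sources used here are the aligner, the counting tool, how reads with several hits were shared out and whether strand was used. The sample titled nucleoplasmic RNA was matched to the nucleolin column through the series' design text.

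From these values, 56 rows without a symbol (0.0794% of the summed FPKM of the nucleolin library and 0.0364% of the IgG library's) were left out and the rest summed to 23924 symbols, with Python 3.11.15, pandas 2.3.3 and numpy 2.4.6. The log2 ratio was nucleolin over IgG with a pseudocount of 1 FPKM, which understates the change of low genes. Genes at 1 FPKM or more in either library were compared, and 2-fold on this scale was counted; no test was run. The worth of 1 read was found, after seeing the data, as the offset and step that put the most genes with 1 row on a single curve (tolerance 0.0005 on the natural log scale). The computations were checked on simulated data.

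The 8 genes and all lists were chosen with earlier results of these data known. Named genes were the 8, genes of the lists, Exosc10, relatives of the 8 and genes overlapping them (both chosen after values were seen), and Rn45s, Lars2, Mir6236 and Mir142b. The 10 highest protein-coding genes of the IgG library and Ncl, which the naming rule also takes, are named only where they belong to these groups. A related gene is not reported here. The alternatives tried were pseudocounts of 0.1 and 10 FPKM, a minimum of 10 FPKM or none, 3 rescalings and the highest row per symbol.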

Additional observations from a re-analysis of the deposited data

How the results depend on the processing

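All 8 genes stayed lower by 2-fold or more with anti-nucleolin under each of the 8 alternatives; since they are listed at 0 there, no rescaling of that library could change this. Their median log2 ratio of -9.52 was -12.8 with a pseudocount of 0.1 FPKM, -6.22 with 10 FPKM and -8.25 when centred on the median of all genes, and it kept its value with 1 read set equal, with equal sums and with the highest row per symbol. The share of the summed IgG FPKM held by the 8 genes was 8.01%, and 15.6% without Rn45s, Lars2, Mir6236 and Mir142b. Of all genes compared, 1812 were lower and 1206 higher in the nucleolin library; the number lower stayed within 1.5 times, while the number higher was 448 at a minimum of 10 FPKM and 439 with a pseudocount of 10 FPKM. Centring gave 1485 lower and 1283 higher, 1 read set equal 1499 and 1293, and equal sums 1497 and 1334. The worth of 1 read at 1 kb was at most 17.4 FPKM in the nucleolin and 42.4 FPKM in the IgG library with wider tolerances of 0.002 and 0.005, chosen after seeing the data. At 0.005 the offset was 142 bases in the nucleolin library, against 233 bases in the main setting, and 193 bases in the IgG library, against 202 bases. No paired analysis was possible because there is 1 library per antibody. Ghrl, Atp4a, Atp4b and Gif had the fewest reads per kb of the 8 genes. Whole read numbers were not computed, so which of the 8 genes depth limits most was not tested. No replicate measures the spread of any value.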
